A study of Mus musculus with 6 samples.

Results

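The enzymes of serine synthesis and one-carbon metabolism were followed in mouse embryonic fibroblasts (MEF) with and without Rnf20 early in reprogramming. The set holds 10 genes, Phgdh, Psat1, Psph, Shmt1, Shmt2, Mthfd1, Mthfd1l, Mthfd2, Mat2a and Gldc, of the 16982 genes in the deposited count table. They were chosen by name for their place in the pathway, with earlier results of these data known. All 10 passed the filter on low counts, as did 13386 genes in all.

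Serine is built from a glycolytic intermediate by 3 enzymes in turn. PHGDH carries out the oxidation that commits carbon to serine, PSAT1 transfers an amino group and PSPH removes the phosphate. The serine hydroxymethyltransferases, SHMT1 in the cytosol and SHMT2 in mitochondria, then split serine into glycine and a carbon unit carried on folate. MTHFD2 and MTHFD1L turn that unit into formate in mitochondria, and MTHFD1 takes up formate in the cytosol, where the unit serves the synthesis of purines and thymidylate. MAT2A makes S-adenosylmethionine, the methyl donor for histones and DNA, and GLDC breaks glycine down in mitochondria. Pluripotent and proliferating cells are known for a high demand on this pathway.

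RNA was sequenced from 3 WT and 3 Rnf20-/- (KO) cultures of MEF of C57BL/6 background at day 3 after infection with retroviruses for OCT4, SOX2, KLF4 and C-MYC, which all 6 cultures received. RNF20 is the ubiquitin ligase that places a ubiquitin on histone H2B. The KO cells came from embryos with the alleles Rnf20 Flox/Flox and Tamoxifen-cre, in which a ubiquitous Cre is active after 4-OH tamoxifen, given to make the deletion. The results text of the study places this treatment before infection, while a figure legend places it after. Its timing in the sequenced cultures is not stated. WT cells are described as Rnf20+/+, and whether they carried Cre or received tamoxifen is not stated, while the labels list all cultures as untreated. The protocol places infected cells on mitomycin-C-treated MEF feeder layers, and it is not stated whether feeder cells were present in the RNA or whether the cultures of a genotype came from separate embryos. The p-values therefore measure the spread between these samples, which may be technical.

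Libraries held 20545442 to 21746898 counts. Rnf20 in KO was at 16.8% of its WT level (log2 fold change -2.57 ± 0.08 SE). KO replicate 3 stood apart, since its counts differed from those of the other KO libraries by a chi-square per gene of 92.4 and 101, against 6.04 to 8.92 among the remaining pairs within a genotype. Reads of Ddx3y, a Y-linked gene, were present in the 3 WT libraries and KO replicate 2 (1990 to 2686 counts) and at 0 counts in KO replicates 1 and 3, so this difference runs partly along genotype. Of 10 fibroblast genes none was at 0 in any library. Of 6 endothelial genes, Pecam1, Cdh5, Tie1 and Emcn did not pass the filter on low counts, whereas Kdr (0.712 to 1.77 CPM, counts scaled to a common library size after TMM normalization) and Tek (30.8 to 64.5 CPM) passed it and neither differed at an adjusted p under 0.05. Summed CPM of 10 macrophage genes was 56.7 to 116 in WT and 94.0, 60.6 and 269 in KO replicates 1 to 3. That of the epithelial genes was 57.3 to 61.5 in WT and 78.0, 54.2 and 22.2 in KO. Of the 6 epithelial genes tested, 1 (Cldn3) was lower and 1 (Krt19) was higher at an adjusted p under 0.05, 5 had a negative log2 fold change, and their median against the WT mean was -0.68, -0.90 and -2.29 in KO replicates 1 to 3. Krt19 read 12.7 to 15.4 CPM in WT and 43.2, 29.7 and 18.4 CPM in KO.

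Of the 10 genes, 4 were lower in KO (Shmt1, Mthfd1l, Shmt2 and Phgdh) and 0 were higher, at an adjusted p under 0.05 in edgeR's quasi-likelihood test. Among all genes tested, 16.6% were lower and 16.4% were higher at that threshold, or 33% in either direction. At an unadjusted p under 0.05 the members numbered 4 lower and 0 higher, against 23% and 22.5% of all genes. DESeq2 also gave 4 and 0, against 16.3% and 17.4% of the genes to which it gave an adjusted p. At an adjusted p under 0.01 in edgeR with all libraries only Shmt2 was lower, where the background was 4.89% lower and 4.98% higher. The fold changes and FDR of the authors' own comparison were not used, so their calls may differ. The rule of the study, which also asks for an absolute log2 fold change over 1, was applied to the edgeR values. No member met it there (background 2.08% lower and 1.5% higher). Shmt1 missed that rule by its adjusted p of 0.0102 and met it with DESeq2 (log2 fold change -1.54, adjusted p = 1.58e-06) and without KO replicate 3 (-1.26, adjusted p = 3.56e-06), at a mean FPKM of 12.7 in WT. With DESeq2 Shmt2 (adjusted p = 4.80e-05) and Mthfd1l (0.00106) were also under 0.01, and without KO replicate 3 all 4 genes were. The share of all genes under 0.01 is not given for these settings, so the members cannot be set against it. Without KO replicate 3 the share at 0.05 rose to 24.2% lower and 23.9% higher. These are bulk samples, in which fewer cells of a type and less RNA per cell cannot be told apart.

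The sequences just before the starts of these 4 genes are shown because the genes moved in one direction and differ in the boxes that their promoters carry. They were taken from RefSeq (GRCm38.p6), which had an entry for 10 of 10 members, from the 250 bases before each start, and bases lying in exons of GENCODE M21 were removed. Each run is written 5′ to 3′ on the strand of the gene, and capitals mark a complete CCAAT (the box bound by NF-Y) or GGGCGG (the GC box bound by Sp1 proteins) on either strand, where ATTGG and CCGCCC are the same boxes on the other strand.
Shmt1, chr11:60811266-60811466, minus strand: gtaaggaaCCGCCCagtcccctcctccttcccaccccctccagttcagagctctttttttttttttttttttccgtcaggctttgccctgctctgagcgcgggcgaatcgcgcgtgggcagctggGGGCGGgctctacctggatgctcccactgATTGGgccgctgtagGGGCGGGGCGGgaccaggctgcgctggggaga
Shmt2, chr10:127522445-127522694, minus strand: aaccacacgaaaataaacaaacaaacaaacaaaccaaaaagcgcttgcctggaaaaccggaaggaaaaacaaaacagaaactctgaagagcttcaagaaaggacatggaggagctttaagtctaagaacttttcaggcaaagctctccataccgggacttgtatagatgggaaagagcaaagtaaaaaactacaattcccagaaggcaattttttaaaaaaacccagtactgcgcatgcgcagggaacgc
Mthfd1l, chr10:3972825-3973074, plus strand: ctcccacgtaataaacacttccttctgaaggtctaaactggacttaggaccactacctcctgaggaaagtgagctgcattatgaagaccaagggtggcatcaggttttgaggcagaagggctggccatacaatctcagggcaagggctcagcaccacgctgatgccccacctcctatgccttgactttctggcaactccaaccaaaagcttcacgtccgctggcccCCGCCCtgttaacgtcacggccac
Phgdh, chr3:98339991-98340219, minus strand: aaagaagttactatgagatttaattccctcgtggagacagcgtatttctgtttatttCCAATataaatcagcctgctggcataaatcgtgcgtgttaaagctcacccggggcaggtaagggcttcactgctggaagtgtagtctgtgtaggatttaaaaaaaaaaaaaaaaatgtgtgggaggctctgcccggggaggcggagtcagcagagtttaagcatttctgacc

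Shmt1 carried 1 CCAAT and 4 GGGCGG, of which the pair nearest the start overlaps. The Shmt1 run precedes the RefSeq start but lies within the GENCODE span of the gene (chr11:60788104-60811718). The 49 bases removed from its window are in an exon of Shmt1 itself. Mthfd1l carried 1 GGGCGG and Shmt2 neither box. Phgdh carried 2 CCAAT, the one 23 bases before the start crossing into the exon and so not shown whole. The boxes were not particular to the lower genes. Among members that did not pass, CCAAT was in windows of Psat1, Psph, Mthfd1, Mthfd2, Mat2a and Gldc. GGGCGG was in windows of the same genes except Mthfd2. Of 32851 mouse promoter windows of the same length, 33.9% held CCAAT and 32.7% held GGGCGG. The same search on both strands was made for CACGTG (the E-box that MYC binds) and TGATGNAA (the element that ATF4 binds), which were present in 6.02% and 3.45% of windows. Neither was found in the 11 windows of the 10 members. A match is a description of letters in a window and not a site of binding.

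Phgdh (GRCm38 chr3:98313170-98339990, minus strand) had the highest level per length among the members in WT by CPM per kilobase. In order of replicate, the WT libraries read 212, 205 and 244 CPM and the KO libraries 169, 186 and 146 CPM. All KO libraries lay below all WT libraries. The KO mean was 75.8% of WT (log2 fold change -0.40 ± 0.11 SE, 95% interval -0.67 to -0.13, adjusted p = 0.0364 in edgeR). The call was the weakest of the 4. It was lost without WT replicate 1, WT replicate 2, WT replicate 3 or KO replicate 1, with an adjusted p of 0.0747 to 0.125 in edgeR, and the value without KO replicate 3 was -0.31 (adjusted p = 0.00822). The genome holds a pseudogene named Phgdh-ps1, which could share reads.

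Psat1 (chr19:15904678-15947337, minus strand) read 216, 225 and 218 CPM in WT and 209, 207 and 148 CPM in KO. The KO libraries were all below WT, but KO replicates 1 and 2 lay close to the WT range and replicate 3 far under it. The difference did not pass (log2 fold change -0.22 ± 0.14 SE, interval -0.55 to 0.10, adjusted p = 0.238 in edgeR), and without KO replicate 3 it was -0.08 (adjusted p = 0.229). Psph (chr5:129765558-129787449, minus strand), the last enzyme of serine synthesis, read 15.5, 15.6 and 18.0 CPM in WT and 15.4, 17.6 and 19.5 CPM in KO, and the groups overlapped. Its log2 fold change was 0.10 ± 0.12 SE (interval -0.20 to 0.39, adjusted p = 0.575 in edgeR). Of the 3 enzymes of serine synthesis, then, the test was passed only by Phgdh.

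Shmt1 (chr11:60788104-60811718, minus strand), the cytosolic hydroxymethyltransferase, showed the largest difference among the 10 genes. It read 32.8, 30.8 and 33.6 CPM in WT and 13.8, 13.2 and 6.19 CPM in KO. The WT libraries lay close together and all KO libraries lay far below them, with KO replicate 3 lowest. The KO mean was 34.2% of WT, a level 2.92-fold lower (log2 fold change -1.55 ± 0.28 SE, interval -2.22 to -0.88, adjusted p = 0.0102 in edgeR). Without KO replicate 3 the value was -1.26 (adjusted p = 3.56e-06), and without WT replicate 3 it was -1.52 (adjusted p = 0.0502).

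Shmt2 (chr10:127517123-127522444, minus strand), the mitochondrial counterpart, read 145, 150 and 154 CPM in WT and 108, 111 and 89.0 CPM in KO. The groups did not overlap, and KO replicate 3 was again the lowest. The KO mean was 68.5% of WT (log2 fold change -0.55 ± 0.10 SE, interval -0.78 to -0.31, adjusted p = 0.00972 in edgeR). It was -0.45 without KO replicate 3 (adjusted p = 0.000106), and without WT replicate 3 the adjusted p was 0.0508.

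Mthfd1l (chr10:3973118-4167081, plus strand), which releases formate from folate in mitochondria, read 59.9, 61.5 and 64.4 CPM in WT and 42.7, 45.7 and 31.0 CPM in KO. Every KO library was below every WT library. The KO mean was 64.3% of WT (log2 fold change -0.64 ± 0.15 SE, interval -0.98 to -0.29, adjusted p = 0.0193 in edgeR). The value without KO replicate 3 was -0.49 (adjusted p = 0.000244), and the call was lost without WT replicate 1 (0.0597), 2 (0.0690) or 3 (0.0769).

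Mthfd2 (chr6:83305691-83325908, minus strand), the dehydrogenase and cyclohydrolase that acts before MTHFD1L in the same compartment, read 51.2, 45.4 and 53.3 CPM in WT and 47.3, 56.1 and 45.3 CPM in KO. The groups overlapped throughout (log2 fold change -0.01 ± 0.11 SE, interval -0.27 to 0.25, adjusted p = 0.941 in edgeR). Mthfd1 (chr12:76255298-76319803, plus strand), the cytosolic enzyme of 3 activities, read 93.8, 100 and 101 CPM in WT and 103, 99.4 and 62.3 CPM in KO. KO replicates 1 and 2 were within or above the WT range and only replicate 3 was below it. The log2 fold change of Mthfd1 was -0.15 ± 0.19 SE (interval -0.59 to 0.29, adjusted p = 0.553 in edgeR) and 0.05 without KO replicate 3 (adjusted p = 0.522).

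Mat2a (chr6:72432799-72439558, minus strand) read 182, 199 and 194 CPM in WT and 199, 200.8 and 189 CPM in KO. The groups overlapped, and the interval of the difference was the narrowest of the 10 genes (log2 fold change 0.03 ± 0.07 SE, interval -0.13 to 0.20, adjusted p = 0.733 in edgeR). Gldc (chr19:30098447-30175429, minus strand) was barely expressed, with 40, 34 and 29 counts in WT and 49, 22 and 28 counts in KO, or 1.04 to 2.34 CPM. The groups overlapped and the interval was wide (log2 fold change -0.05 ± 0.36 SE, interval -0.92 to 0.81, adjusted p = 0.921 in edgeR). Its mean FPKM was 0.408 in WT and 0.397 in KO.

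Exons of Mat2a overlap a transcript on the opposite strand (Particl) over 508 bases, those of Psph overlap Cct6a over 452 bases and those of Shmt1 overlap Smcr8 over 184 bases. For Mthfd1 (Gm47525, 37 bases) and Shmt2 (Ndufa4l2, 32 bases) the overlap is short. Whether counting used the strand is not given in the sources used here, so reads in those stretches cannot be assigned with certainty.

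**Figure D1:**
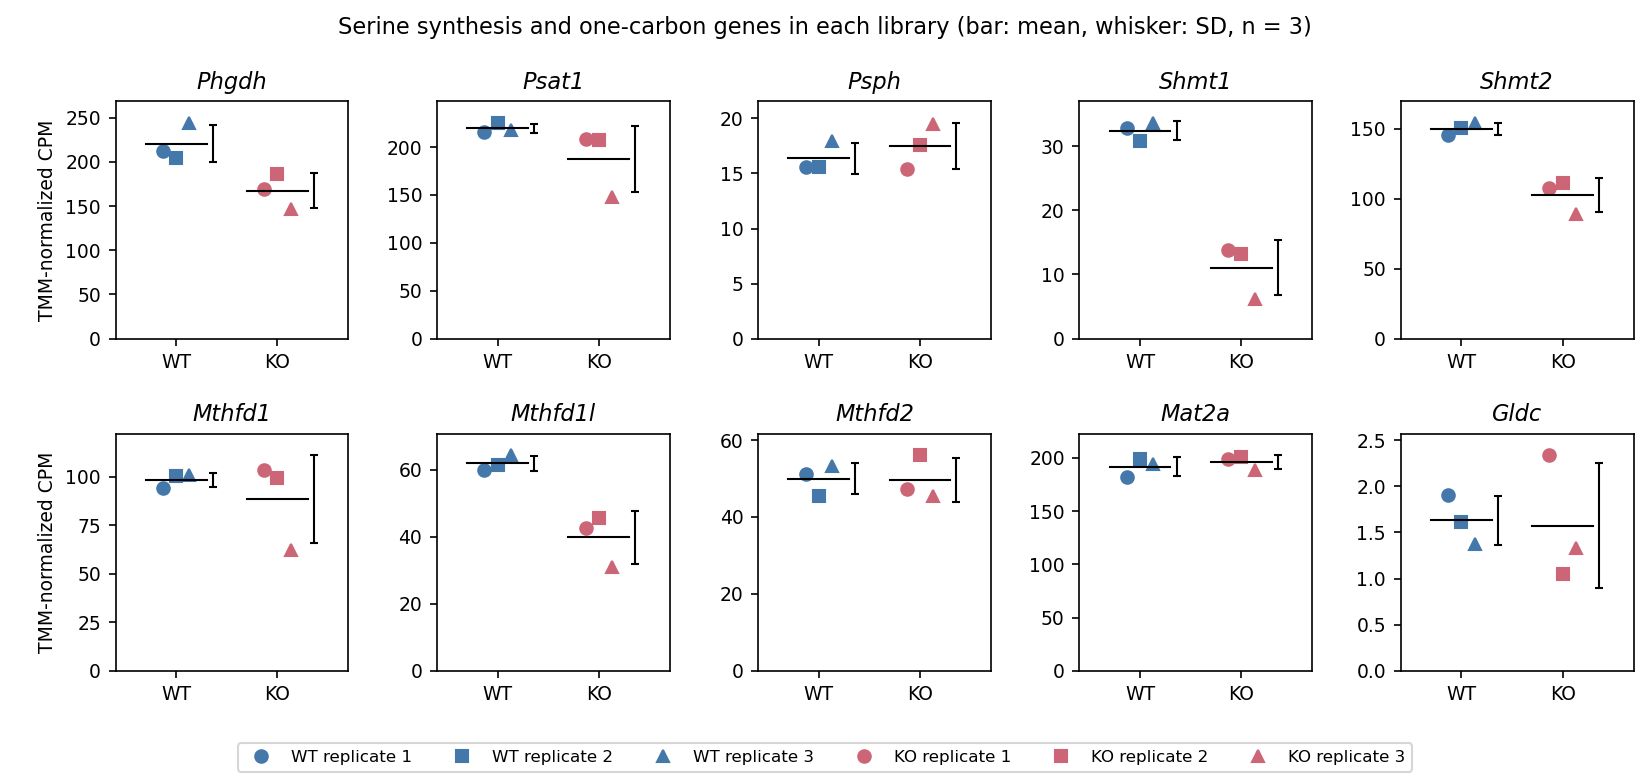
Expression of the 10 genes in each library, in CPM after TMM normalization, with one panel per gene, a point for each of 3 WT and 3 KO libraries, a bar at the group mean and a whisker for the SD. In Phgdh, Psat1, Shmt1, Shmt2 and Mthfd1l the KO points all sit below the WT points, and KO replicate 3 is the lowest in each.

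**Figure D2:**
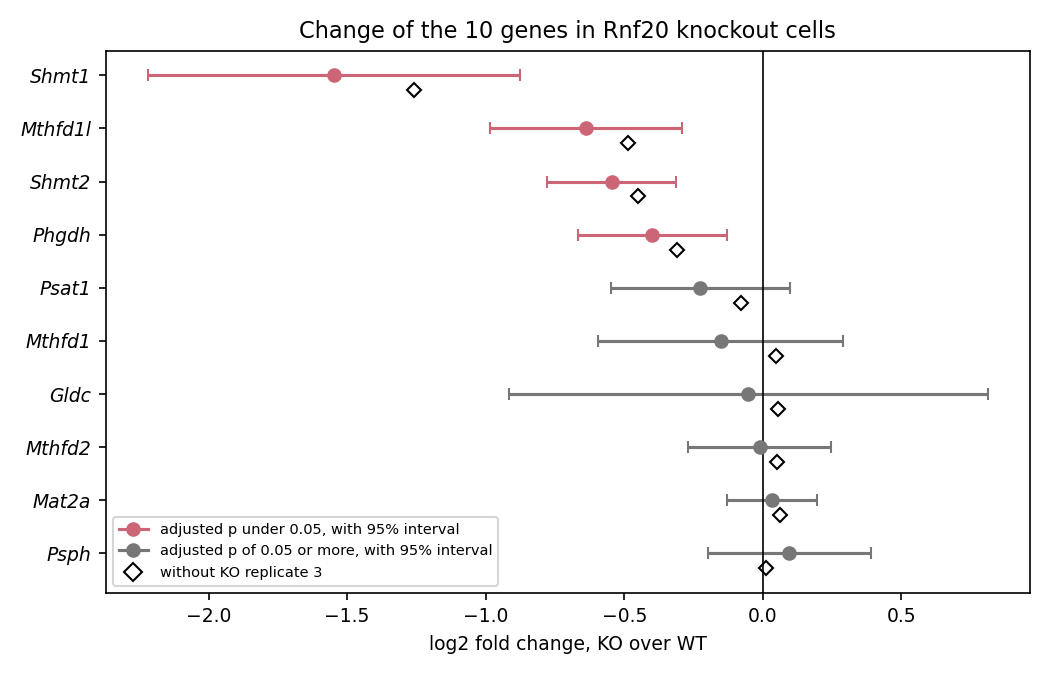
Log2 fold change of KO over WT for the 10 genes, with whiskers for the 95% interval, red for an adjusted p under 0.05, grey for the rest and open diamonds for the value without KO replicate 3. The intervals of Shmt1, Mthfd1l, Shmt2 and Phgdh lie below 0 and those of the other 6 genes cross 0.

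Taking the libraries singly, 5 of the 10 genes had all KO libraries below all WT libraries and 0 had all above. Over all genes tested these shares were 28.2% and 26.6%. The median log2 fold change of the 10 genes was -0.19 against -0.00032 over all genes. Set against the WT mean, the median of the 10 genes was -0.08 in KO replicate 1, -0.16 in replicate 2 and -0.58 in replicate 3. Without KO replicate 3 the median of the fitted values was -0.03, while the same test gave 4 genes lower and 0 higher on a background of 24.2% lower and 23.9% higher. KO replicate 2, which held Ddx3y reads as the WT libraries did, was below every WT library in each of the 4 genes that passed. With a term for Ddx3y reads beside genotype, under which that library alone stands for KO, none of the 4 passed (adjusted p of 0.145 to 0.363 in edgeR), at log2 fold changes of -1.30 for Shmt1, -0.44 for Mthfd1l, -0.43 for Shmt2 and -0.25 for Phgdh.

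**Figure D3:**
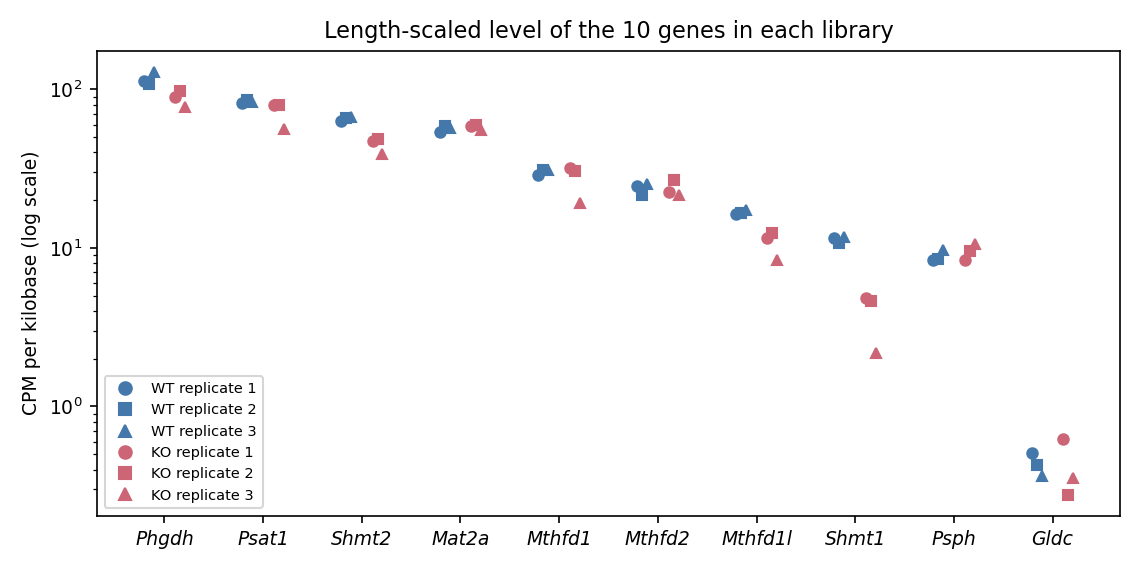
Level of each of the 10 genes per length, in CPM per kilobase on a log axis, with points for the libraries of each genotype. Phgdh is the highest in WT and KO and Gldc the lowest, and Shmt1 changes place with Psph between WT and KO.

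Levels were compared between genes as CPM per kilobase of the deposited gene length. In WT the order was Phgdh (116), Psat1 (83.9), Shmt2 (65.5), Mat2a (56.6), Mthfd1 (30.3), Mthfd2 (23.8), Mthfd1l (16.8), Shmt1 (11.3), Psph (8.88) and Gldc (0.434), with no overlap of libraries between neighbours. In KO the order was Phgdh (88.3), Psat1 (71.8), Mat2a (57.9), Shmt2 (44.9), Mthfd1 (27.3), Mthfd2 (23.6), Mthfd1l (10.8), Psph (9.49), Shmt1 (3.88) and Gldc (0.419). In KO the libraries of Phgdh and Psat1 overlapped, as did those of Psat1 and Mat2a, of Mthfd1 and Mthfd2, and of Mthfd1l and Psph. Shmt2 stood above Mat2a in WT and below it in KO. Some of these places depend on how a level is scaled, since by the FPKM of the authors Psat1 (114) and Phgdh (111) overlapped in WT and Mat2a (93.1) stood above Shmt2 (69.7) in both genotypes.

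Ratios between enzymes of related function are free of library scaling. Shmt2 over Shmt1, the mitochondrial enzyme over the cytosolic one, was 5.53, 6.10 and 5.72 in WT and 9.73, 10.5 and 17.9 in KO, per length. All KO ratios exceeded all WT ratios, by 1.08 on the log2 scale (SD 0.07 over WT and 0.48 over KO libraries, n = 3 each) or 2.12-fold, with the smallest p that 20 regroupings can give (exact two-sided permutation test, p = 0.1, 0.15 adjusted over 3 ratios). Both genes fell, to 34.2% of WT for Shmt1 and 68.5% for Shmt2. Without KO replicate 3 the difference was 0.81.

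Mthfd1l over Mthfd1 was 0.561, 0.540 and 0.563 in WT and 0.363, 0.404 and 0.437 in KO. The KO ratios were all lower, by a log2 difference of -0.47 (exact two-sided permutation test, p = 0.1, 0.15 adjusted). In KO replicate 3 both genes were low, and its ratio was the nearest of the KO libraries to WT. Mthfd2 over Mthfd1 was 0.842, 0.700 and 0.818 in WT and 0.706, 0.870 and 1.12 in KO, and the groups overlapped (log2 difference 0.17, exact two-sided permutation test, p = 0.4). With 3 libraries against 3 no ratio can reach a p under 0.1.

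**Figure D4:**
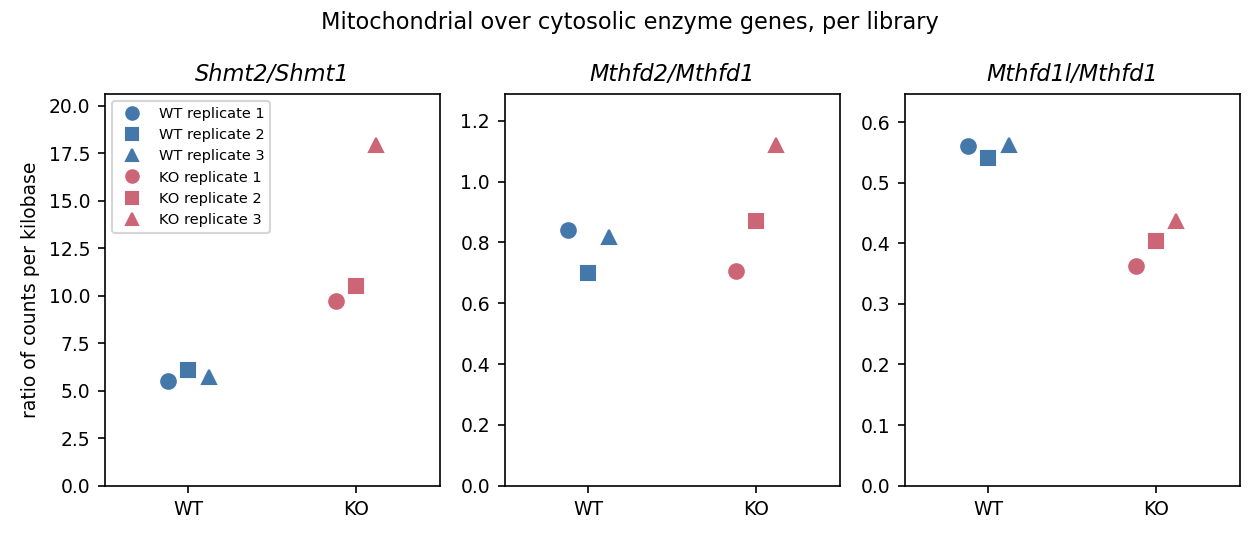
Ratios of mitochondrial to cytosolic enzymes in each library, as the ratio of counts per kilobase on a linear axis, with points for the 3 WT and 3 KO libraries. The KO points of Shmt2 over Shmt1 lie above the WT points, those of Mthfd1l over Mthfd1 lie below them, and those of Mthfd2 over Mthfd1 overlap them.

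Of the other genes of these pathways, 48 symbols were listed, 45 were in the table and 41 were tested. In KO 7 were lower and 7 were higher, near the 16.6% and 16.4% of all genes tested, and 27 did not pass. Their median log2 fold change was -0.03. Without KO replicate 3 there were 12 lower and 8 higher, where 24.2% of all genes were lower and 23.9% higher. The same shares of all genes stand beside the counts of the lists below.

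In the folate cycle, 3 of 14 tested genes were lower, 1 was higher and 10 did not pass. Tyms, thymidylate synthase and a consumer of the folate carbon unit, read 37.1, 35.0 and 36.7 CPM in WT and 22.1, 18.9 and 19.9 CPM in KO. Its libraries did not overlap between genotypes, and the log2 fold change was -0.84 ± 0.09 SE (adjusted p = 0.00321 in edgeR). A pseudogene named Tyms-ps could share its reads. Slc19a1, the reduced folate carrier, fell by 0.65 on the log2 scale (adjusted p = 0.00641 in edgeR). Aldh1l1, which oxidises formyl-tetrahydrofolate, was higher by 0.76 (adjusted p = 0.0477 in edgeR) at only 1.71 to 3.76 CPM, and without KO replicate 3 its adjusted p was 0.0512.

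In the methionine cycle, 2 of 11 tested genes were lower, 1 was higher and 8 did not pass. Ahcy, which clears S-adenosylhomocysteine, read 157, 148 and 153 CPM in WT and 103, 102 and 83.8 CPM in KO. The groups were apart (log2 fold change -0.66 ± 0.10 SE, adjusted p = 0.00583 in edgeR). Mat2b, the regulatory partner of MAT2A, fell by 0.32 (adjusted p = 0.0249 in edgeR), whereas Mat2a itself did not pass. Mtap, which salvages methionine from polyamine synthesis, rose by 0.47 (adjusted p = 0.00694 in edgeR). Mtr, methionine synthase, was at -0.56 ± 0.20 SE (adjusted p = 0.0712 in edgeR) and passed without KO replicate 3 at -0.35 (adjusted p = 0.00532). Of the transsulfuration enzymes, Cbs was at -1.0 ± 0.35 SE (adjusted p = 0.0685 in edgeR) at 1.2 to 4.6 CPM, and Cth at -0.28 ± 0.21 SE (adjusted p = 0.324). Without KO replicate 3 both passed, at -0.95 for Cbs (adjusted p = 0.0490) and -0.52 for Cth (adjusted p = 0.0123).

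The other subunits of the glycine cleavage system, 3 in number, did not pass. Amt was at -0.06, Gcsh at 0.15 and Dld, shared with other dehydrogenase complexes, at 0.15 on the log2 scale. Dld passed without KO replicate 3, at 0.20 (adjusted p = 0.0208 in edgeR). Among genes for the supply and use of serine and glycine, 2 of 13 were lower, 5 were higher and 6 did not pass. Gcat, which acts in threonine breakdown to glycine, read 16.1, 14.9 and 15.8 CPM in WT and 7.59, 7.12 and 5.19 CPM in KO (log2 fold change -1.23 ± 0.16 SE, adjusted p = 0.00460 in edgeR). A pair of gene models share the name Gcat in GENCODE and 1132 exonic bases, so its counts are less certain. Slc1a5, a carrier of glutamine and neutral amino acids, fell by 0.67 (adjusted p = 0.0220 in edgeR) and Slc1a4, a carrier of serine and alanine, rose by 0.52 (adjusted p = 0.0226). Sptlc1, which joins serine to a fatty acid in sphingolipid synthesis, rose by 0.47 (adjusted p = 0.00743 in edgeR), and Alas1, which uses glycine for haem, rose by 0.40 (adjusted p = 0.0349). Gcat also met the rule of the study, applied to the edgeR values.

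**Figure D5:**
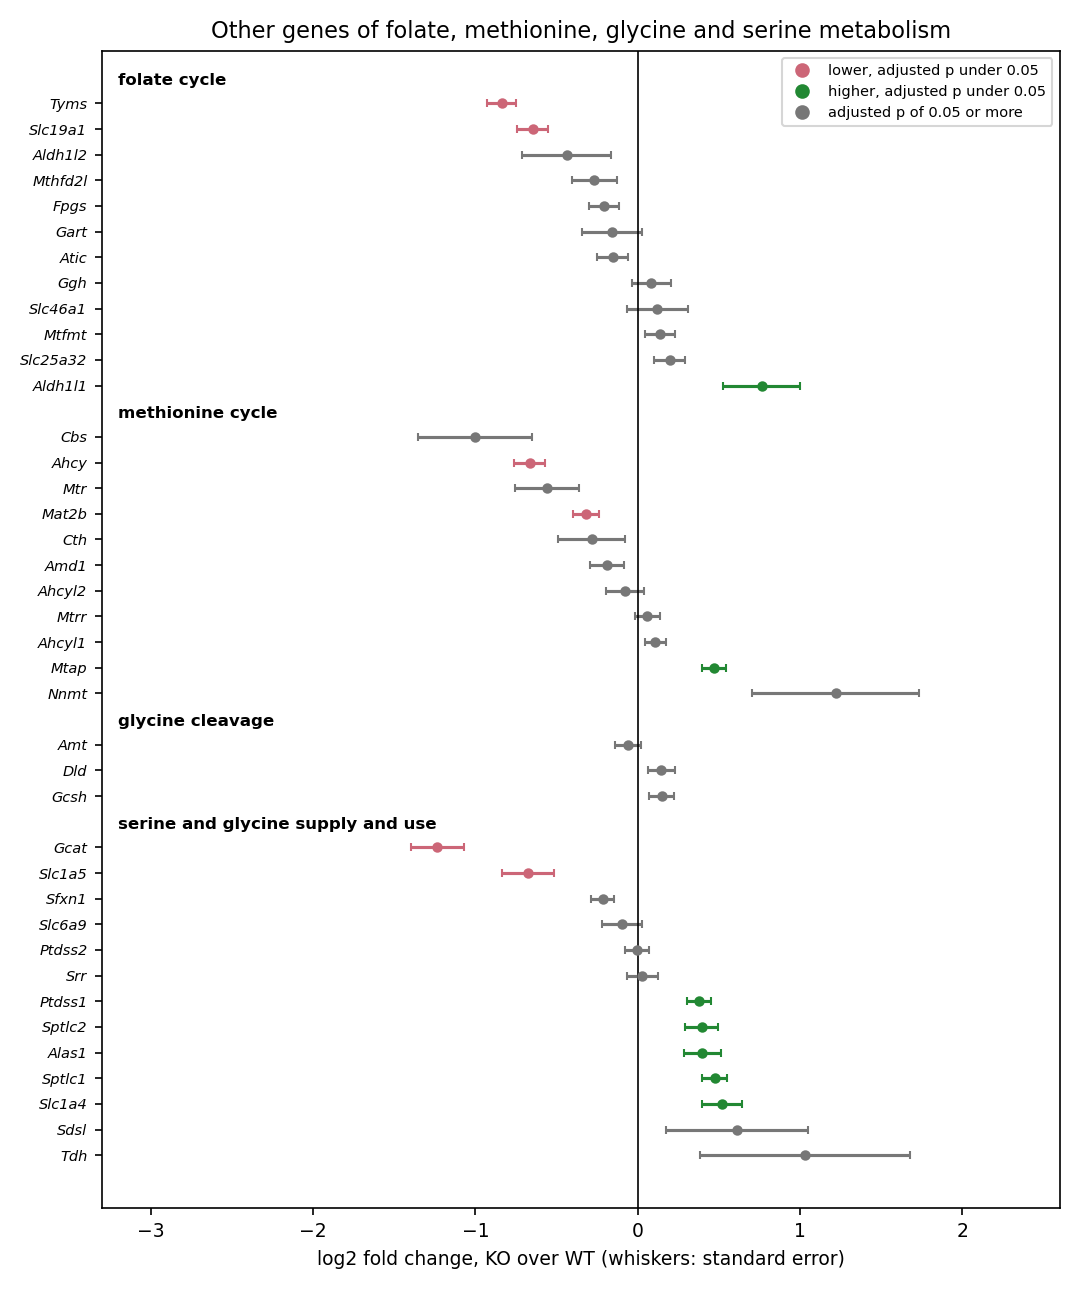
Log2 fold change of KO over WT for tested genes of the 4 pathway lists, with whiskers for the standard error, red for lower and green for higher at an adjusted p under 0.05 and grey for the rest. Tyms, Ahcy and Gcat are among the lower genes, and 5 of the 7 higher genes belong to serine and glycine supply and use.

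ATF4 is a known activator of Phgdh, Psat1, Shmt2 and Mthfd2, so its other target genes were listed beside them, together with Atf4. Of 15 genes 1 was lower, 5 were higher and 9 did not pass, with a median log2 fold change of 0.33. Nupr1 rose by 1.57 (adjusted p = 0.0120 in edgeR), Atf3 by 1.43 (0.00251), Ddit3 by 1.02 (0.00652), Sesn2 by 0.57 (0.00684) and Asns by 0.30 (0.0214). Asns, asparagine synthetase, read 105, 112 and 114 CPM in WT and 128, 140 and 140 CPM in KO. The lower gene was Ddit4 at -0.26, named after its values were seen, and Atf4 was at -0.12 ± 0.07 SE (adjusted p = 0.234 in edgeR). Without KO replicate 3 there were 1 lower and 7 higher.

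Genes of proliferation differed by genotype as a list, while 4 of the 10 enzymes passed and 6 did not. All 15 listed genes were lower in KO (median log2 fold change -1.43), and without KO replicate 3 all 15 were lower with a median of -1.20. Their summed CPM was 2168 to 2199 in WT and 1021, 888 and 412 in KO replicates 1 to 3. Shmt1 followed the same order of KO libraries, as did Psat1 and Mthfd1, which did not pass. Phgdh, Shmt2, Mthfd1l, Mthfd2, Mat2a and Psph were higher in KO replicate 2 than in replicate 1. Each of these was lowest in KO replicate 3, as the proliferation sum was, except Psph, which was highest there. Gldc was lowest in KO replicate 2. In Shmt1 KO replicates 1 and 2 lay close together, at 13.8 and 13.2 CPM. The largest changes were in Mki67 (-2.08), Top2a (-1.78), Ccnb1 (-1.70), Mcm5 (-1.68) and Ccna2 (-1.61), each past the threshold. The part of proliferation in the levels of the 10 enzymes was not tested. In the fibroblast list 2 of 10 genes, Pdgfra (-1.22) and Thy1 (-1.11), were lower and none was higher, and its summed CPM was 30911 to 33670 in WT and 32523, 40632 and 21974 in KO. Of the macrophage genes 0 of 10 passed, also at an unadjusted p under 0.05. Their part was not tested either.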

How the data were processed

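Counts per gene and FPKM of 3 WT and 3 KO cultures at day 3 were used, grouped by the genotype in the labels. The authors prepared TruSeq stranded mRNA libraries and aligned reads to GRCm38/mm10, and the submitters' processing notes name HISAT2 2.1.0 and Cufflinks 2.1.1. The authors deposited raw counts for 16982 genes with gene lengths, and the counting program is not given in the sources used here. The authors deposited FPKM values for 12633 genes, which served the rule of the study and a second scale of levels. Their table also holds fold changes and FDR of their own comparison, which were not used, and repeats the counts. The rule of the study was applied to the edgeR values instead.

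In R 4.3.3, edgeR 4.0.16 was run with TMM factors, filterByExpr and the quasi-likelihood test without covariates, with Benjamini-Hochberg adjustment over the 13386 genes tested, with calls made at an adjusted p under 0.05. The SE is the absolute log2 fold change over the square root of F. Isoenzyme ratios were compared by exact two-sided permutation. The script was tested on simulated data. Of the gene IDs, 16486 matched GENCODE M21. At this depth 3 counts equal 0.138 to 0.146 CPM, which covers counting error only.

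The members and lists were chosen with earlier results of these data known. All members are named. Of each list the passing genes are named up to the 5 with the largest change, plus Tyms, Mtr, Ahcy, Cbs, Cth, Mat2b, Amt, Gcsh and Dld, with Rnf20 and Ddx3y as checks. Some results under this rule are not reported here, though the counts include them. Alternatives were RLE factors, library size only, DESeq2 1.42.0, no filter on low counts, the replicate number as a block, a term for Y-linked reads, each library left out in turn, an adjusted p under 0.01, and the rule of the study (adjusted p under 0.01, absolute log2 fold change over 1 and mean FPKM over 1 in WT or KO).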

Additional observations from a re-analysis of the deposited data

How the results depend on the processing

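The 4 lower members numbered 0 with a term for Y-linked reads, 1 at an adjusted p under 0.01 and 0 under the rule of the study. Leaving out 1 library gave 0 to 4 (0 without WT replicate 3, 2 without WT replicate 1 or 2). Of all genes, 5.17% were lower without WT replicate 3, 7.31% without WT replicate 1 and 6.13% without WT replicate 2. With all libraries this share was 16.6%. The shares higher were 5.11%, 7.01% and 5.75% in the same order, 12.4% without KO replicate 2 and 16.4% with all libraries. These shares stand also beside the counts of the other pathway genes below. Scaling by library size only gave 2684 lower and 1750 higher of all genes, against 2218 and 2195, and 4 lower members, and the count of higher members was 0 under every alternative. With the Y-linked term, which called 29 genes lower and 80 higher of all genes, the values of Shmt1 and Mthfd1l were -1.30 and -0.44. The 7 lower genes of the rest of the pathway became 0 with the Y-linked term, 2 under the rule of the study and 5 to 12 with a library left out (12 without KO replicate 3). The 7 higher genes became 0, 0 and 2 to 8 (3 without WT replicate 1 or 3, 2 without WT replicate 2, 4 without KO replicate 2), and 2 at an adjusted p under 0.01.

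The deviations of same-numbered libraries correlated at -0.066, 0.037 and 0.011, which gave no sign of pairing by replicate number. With 3 libraries in a group, and KO replicate 3 apart from the others, such values cannot exclude it. With the replicate block 3 members were lower (Phgdh at an adjusted p of 0.0902), and 7 other pathway genes were lower and 3 higher, while 11.1% of all genes were lower and 10.3% higher. Not every library correlated best with its own number.

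Of the 6 members that did not pass, 4 changed sign under some alternative, and Psat1 and Psph did not. Mthfd1 was at 0.018 with the Y-linked term and -0.28 to 0.049 with a library left out (0.049 without KO replicate 3). Mthfd2 was at 0.17 with the Y-linked term and -0.10 to 0.051 with a library left out. Mat2a was at -0.027 by library size only, 0.067 with the Y-linked term and -0.0054 to 0.061 with a library left out. Gldc was at -0.64 with the Y-linked term and -0.45 to 0.17 with a library left out. Mthfd2 over Mthfd1 ran from -0.00011 without KO replicate 3 to 0.33, Shmt2 over Shmt1 from 0.81 to 1.25 and Mthfd1l over Mthfd1 from -0.53 to -0.40. The median of the members ran from -0.35 to -0.03. Of the values for single members under the alternatives, 94 kept direction and side of the threshold, 14 no longer passed and 12 changed sign. The causes were not tested. Depth limits Gldc, with 22 to 49 counts in a library.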
